A study of Homo sapiens with 6 samples.

Results

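The proline, ornithine and polyamine enzymes examined here are 9 genes of the 60664 in the deposited expression table: ALDH18A1, PYCR1, PYCR3, PRODH, OAT, ODC1, ARG2, SRM and SAT1. They were taken by gene name, and each name matched 1 row. Expression was measured by RNA-seq in 67R cells, a subline of the human lung adenocarcinoma line NCI-H1975 (EGFR L858R/T790M) that had been selected for resistance to the EGFR inhibitor ASK120067. All 6 libraries came from this resistant line. Cells in 3 of them received a negative control siRNA (siNC) and cells in the other 3 an siRNA against BCAT1 (siBCAT1), the cytosolic branched-chain amino acid transaminase, which moves an amino group between branched-chain amino acids and glutamate. The comparison therefore asked how transcripts of these enzymes stood after BCAT1 knockdown in a single resistant line. Parental cells were not part of it, and nothing in the labels says whether the 3 libraries of a group came from separate cultures, so p-values measure the spread between these libraries only.

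Proline and the polyamines are both made from intermediates of glutamate and arginine that meet at ornithine and pyrroline-5-carboxylate. ALDH18A1 reduces glutamate to pyrroline-5-carboxylate, the PYCR reductases turn it into proline, and PRODH and ALDH4A1 run the route back to glutamate. OAT links ornithine to pyrroline-5-carboxylate, ARG2 is the mitochondrial arginase that releases ornithine from arginine, ODC1 decarboxylates ornithine to putrescine, SRM adds an aminopropyl group to give spermidine, and SAT1 acetylates polyamines for export or oxidation. In growing tumor cells these routes supply proline for protein and collagen, recycle reducing equivalents and maintain the polyamine pool.

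Values are TPM (a transcript abundance scaled to the library total), also corrected for gene length, so a value is a share of the library and not an amount per cell. The 6 libraries summed to between 992512 and 995593 TPM and listed 23152 to 25043 genes above 0. TPM keeps no read counts, so the depth behind a single value is unknown. Differences were tested as log2(TPM + 1) with limma over the 14286 genes averaging 1 TPM or more, adjusted by the Benjamini-Hochberg method and called at 0.05, and all fold changes below are on this scale, which understates those of weakly expressed genes. BCAT1 itself was at 42.70, 42.18 and 29.76 TPM in siNC and at 8.78, 7.1 and 8.0 TPM in siBCAT1 libraries, a log2 fold change of -2.12 (limma, adjusted p = 0.000272). Of 9 epithelial and lung adenocarcinoma markers 7 averaged 1 TPM or more, but the lung adenocarcinoma markers NKX2-1 and NAPSA lay under 0.5 TPM in every library. The summed level of the 9 epithelial markers was 2564 to 2970 TPM in siNC and 1664 to 1952 TPM in siBCAT1 libraries, most of it from KRT7, KRT8 and KRT18. These keratins, KRT19, CDH1 and EGFR were lower in siBCAT1 without overlap, as were 2566 of the 14286 genes tested. EPCAM went the other way, at 0.91 to 1.55 TPM in siNC and 1.96 to 2.61 TPM in siBCAT1 libraries. The 5 leukocyte markers summed to at most 3.90 TPM and the 4 endothelial markers to at most 2.69 TPM, with CD3E at 0. The 5 fibroblast markers summed to 248 to 267 TPM in siNC and 187 to 243 TPM in siBCAT1 libraries, most of it from COL1A2, with LUM and DCN at 0. The part of these marker shifts in the results below was not tested. In bulk RNA, fewer cells with a transcript and less of it per cell cannot be told apart.

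Of the 9 enzymes, 8 passed the filter on low values and 4 were higher in siBCAT1 cells with an adjusted p under 0.05: PYCR3, PYCR1, ODC1 and ALDH18A1. None was lower, in limma's test or at an unadjusted p under 0.05, whereas 6 were higher at that level (ARG2 and SAT1 in addition). Over all genes tested, 23.8% were higher and 15.9% lower at an unadjusted p under 0.05. After adjustment 27.1% were called, 16.7% as higher and 10.4% as lower. Higher calls made up 61.6% of all calls, but 52% with median-ratio scaling and 52.3% with quantile normalization. The median log2 fold change of the 8 tested enzymes was 0.36, against 0.04 over all genes tested. For 5 of the 8 (ALDH18A1, PYCR1, PYCR3, ODC1 and SAT1) every siBCAT1 library lay above every siNC library, as it did for 26.1% of all genes tested. The count of 4 rested on thin margins and ranged from 2 to 6 over the alternatives. The calls of PYCR1 and PYCR3 held under all 14 alternative settings, whereas ALDH18A1 passed under 3 and ODC1 under 4 of them. With median-ratio scaling, quantile normalization, adjustment for GC content and transcript length, or no filter on low values, 2 enzymes remained called, and in each case these were PYCR1 and PYCR3.

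**Figure D1:**
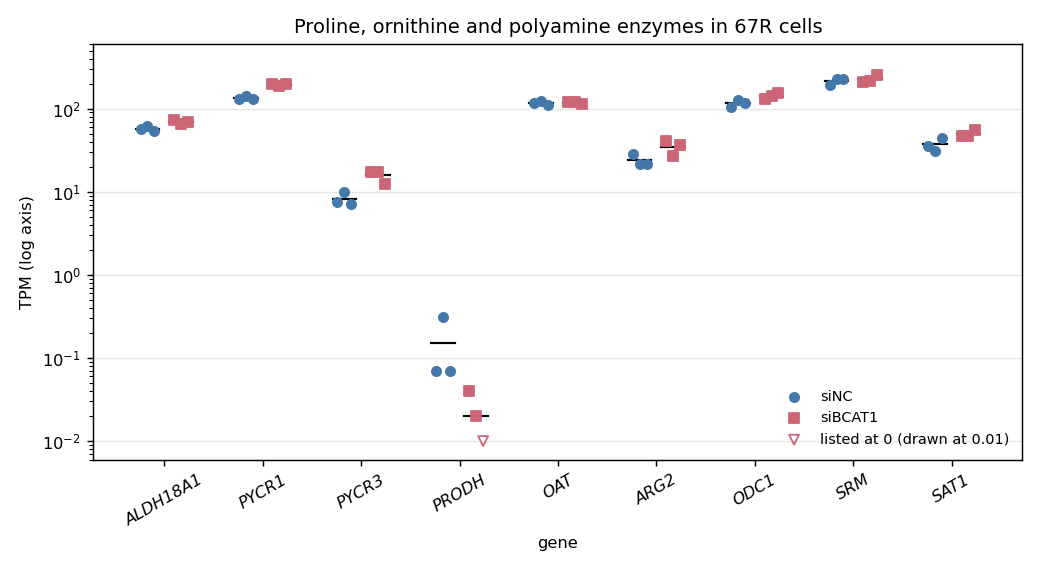
TPM of the 9 enzymes (log axis) in each of the 3 siNC libraries (circles) and 3 siBCAT1 libraries (squares), with a black bar at the mean of each group and an open triangle for a library listed at 0, drawn at 0.01. PYCR1 and PYCR3 are separated between the groups, OAT and SRM overlap, and PRODH lies below 1 TPM throughout.

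PYCR1 and PYCR3, reductases that make proline, rose. PYCR1, a mitochondrial pyrroline-5-carboxylate reductase, was at 131.6, 143.1 and 129.6 TPM in siNC and at 197.4, 188.5 and 199.2 TPM in siBCAT1 libraries. The groups were well apart, since the lowest siBCAT1 library exceeded the highest siNC library by more than the whole range within either group. The mean moved from 135 ± 7.32 to 195 ± 5.73 TPM (SD, n = 3 each), a difference of 44.7%. The log2 fold change was 0.53 ± 0.06 (SE; limma, adjusted p = 0.00118), and it lay between 0.42 and 0.57 over the alternatives. PYCR1 (ENSG00000183010) spans 81932384 to 81942412 of chromosome 17, minus strand (GRCh38, GENCODE 29). It overlaps MYADML2 on the same strand, at 0.08 TPM or less in every library. The antisense genes AC145207.4 and AC145207.1 overlap it on the opposite strand, and no values are listed under those names.

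PYCR3, the cytosolic reductase of the family, which acts mainly on pyrroline-5-carboxylate from ornithine, was the enzyme with the largest relative rise of the 9. It stood at 7.51, 10.06 and 7.05 TPM in siNC and at 17.26, 17.30 and 12.56 TPM in siBCAT1 libraries. Replicate 3 was the lowest of the siBCAT1 libraries and was still above all siNC libraries. The mean rose from 8.21 ± 1.62 to 15.7 ± 2.73 TPM (SD, n = 3 each), or 1.91-fold, and the log2 fold change came to 0.86 ± 0.17 (SE; limma, adjusted p = 0.0104). PYCR3 (ENSG00000104524) spans 143603913 to 143609773 of chromosome 8, minus strand.

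ALDH18A1, which encodes pyrroline-5-carboxylate synthase and commits glutamate to proline and ornithine, was at 56.56, 61.86 and 54.24 TPM in siNC and at 72.66, 65.56 and 69.43 TPM in siBCAT1 libraries. The gene (ENSG00000059573) spans 95605929 to 95656706 of chromosome 10, minus strand. All siBCAT1 libraries were above all siNC libraries, although siBCAT1 replicate 2 and siNC replicate 2 stood close. The mean differed by 20.3%, from 57.6 ± 3.91 to 69.2 ± 3.55 TPM (SD, n = 3 each). The log2 fold change was 0.26 ± 0.07 (SE; limma, adjusted p = 0.0385). With 1 library left out the call held only without siNC replicate 2. The adjusted p was 0.107 without siNC replicate 1, 0.113 without siNC replicate 3, and 0.12, 0.0594 and 0.0971 without siBCAT1 replicates 1, 2 and 3 (limma). With the replicate number as a block it was 0.0542 (limma), on the other side of the threshold.

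On the breakdown side, PRODH, the proline dehydrogenase of the inner mitochondrial membrane, was hardly expressed. It was listed at 0.07, 0.31 and 0.07 TPM in siNC and at 0.04, 0.02 and 0 TPM in siBCAT1 libraries. The gene (ENSG00000100033, chromosome 22, 18912777 to 18936553, minus strand) overlaps DGCR6 on the opposite strand, at 2.80 to 6.57 TPM. PRODH was the 1 enzyme of the 9 that missed the filter, and no fold change is given. The paralog PRODH2 was at 0 in 5 of the 6 libraries and at 0.12 TPM in siBCAT1 replicate 3. ALDH4A1, which oxidizes pyrroline-5-carboxylate on to glutamate, rose from 13.0 ± 0.644 to 19.2 ± 1.45 TPM (SD, n = 3 each; log2 fold change 0.53, limma, adjusted p = 0.00603) and passed under all 14 alternatives. All 4 tested genes of the 6 in the proline list were therefore called as higher, on both sides of the shared intermediate. Of these, 3 (PYCR1, PYCR3 and ALDH18A1) are among the 9 enzymes. Over all genes tested, 16.7% were called as higher.

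At the ornithine step the values were mixed. OAT, the aminotransferase between ornithine and pyrroline-5-carboxylate, was at 118.1, 123.3 and 111.5 TPM in siNC and at 120.8, 120.2 and 114.3 TPM in siBCAT1 libraries. The groups overlapped fully. The gene (ENSG00000065154) spans 124397303 to 124418976 of chromosome 10, minus strand. Its log2 fold change was 0.01, with a 95% interval from -0.13 to 0.15 (limma, adjusted p = 0.922), and its sign turned under 7 of the 14 alternatives. ALDH18A1 over OAT, the TPM ratio of the glutamate entry to the ornithine entry, was 0.479, 0.502 and 0.487 in siNC and 0.602, 0.546 and 0.608 in siBCAT1 libraries. These ratios did not overlap and are given without a test. With OAT nearly level, they largely repeat the difference in ALDH18A1.

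ARG2 stood at 28.79, 21.35 and 21.31 TPM in siNC and at 40.88, 26.83 and 36.80 TPM in siBCAT1 libraries. The groups overlapped in 1 place, since siBCAT1 replicate 2 lay below siNC replicate 1. The mean was 23.8 ± 4.31 TPM in siNC and 34.8 ± 7.23 TPM in siBCAT1 (SD, n = 3 each). The log2 fold change came to 0.52 (95% interval 0.10 to 0.94), and its adjusted p of 0.0687 from limma missed the threshold. It passed without siNC replicate 1 (limma, adjusted p = 0.0488) or without siBCAT1 replicate 2 (0.0281), and with the replicate number as a block (0.0197). ARG2 (ENSG00000081181, chromosome 14, 67619798 to 67651720, plus strand) overlaps VTI1B on the opposite strand, which was at 311 to 349 TPM in all libraries. The libraries were stranded, but whether strand was used in quantification is not given in the sources used here, so reads of the shared stretch make the value of ARG2 uncertain. ARG1, the cytosolic arginase, was at 0.34 TPM or less in every library.

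Around these enzymes, the arginine list held 16 genes, of which 10 were tested, 1 was called as higher and 1 as lower. The shares over all genes tested were 16.7% higher and 10.4% lower. ASS1, argininosuccinate synthase of the urea cycle and of arginine synthesis, fell from 134 ± 8.47 to 95.2 ± 7.55 TPM (SD, n = 3 each; log2 fold change -0.49, limma, adjusted p = 0.00485). NOS3, which uses arginine to make nitric oxide, rose from 31.5 ± 3.79 to 51.8 ± 3.72 TPM (log2 fold change 0.70, limma, adjusted p = 0.00341). Both calls held under all 14 alternatives. SLC25A15, the carrier that brings ornithine into mitochondria, ranged over 5.64 to 6.97 TPM in siNC and 7.17 to 8.92 TPM in siBCAT1 libraries and missed the threshold (log2 fold change 0.32, limma, adjusted p = 0.111).

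ODC1, the rate-limiting and short-lived first enzyme of polyamine synthesis, was at 105.3, 127.8 and 117.3 TPM in siNC and at 132.1, 143.3 and 155.9 TPM in siBCAT1 libraries. The groups were apart, by a gap between siNC replicate 2 and siBCAT1 replicate 1 that was smaller than the range within either group. The mean moved from 117 ± 11.3 to 144 ± 11.9 TPM (SD, n = 3 each), a difference of 23.1%, and the log2 fold change came to 0.30 ± 0.09 (SE). ODC1 (ENSG00000115758) spans 10439968 to 10448504 of chromosome 2, minus strand, and contains the small nucleolar RNA SNORA80B, listed at 9.96 TPM in siNC replicate 1 and at 0 in the other libraries. Its adjusted p of 0.0487 from limma was just under the threshold. With 1 library left out it passed only without siNC replicate 2. The adjusted p was 0.134 without siNC replicate 1, 0.108 without siNC replicate 3, and 0.0539, 0.116 and 0.139 without siBCAT1 replicates 1, 2 and 3 (limma).

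Further along the route no difference beyond the spread between libraries was detected. SRM, spermidine synthase and the most abundant of the 9 transcripts, was at 192.4, 229.9 and 226.9 TPM in siNC and at 211.9, 215.4 and 255.4 TPM in siBCAT1 libraries. The groups overlapped, and the log2 fold change came to 0.07 (95% interval -0.16 to 0.30), with an adjusted p of 0.629 from limma. SRM (ENSG00000116649) spans 11054584 to 11060024 of chromosome 1, minus strand. The annotation lists pseudogene copies of SRM, SRMP1 and SRMP2, both at 0.08 TPM or less. SMS, spermine synthase, averaged 461 ± 23.1 TPM in siNC against 476 ± 25.1 TPM in siBCAT1 (log2 fold change 0.05, limma, adjusted p = 0.595). AMD1, which makes the aminopropyl donor, was at 37.65 to 58.04 TPM in siNC and at 39.68 to 47.56 TPM in siBCAT1 libraries (log2 fold change -0.13, limma, adjusted p = 0.570). Of the 4 genes of polyamine synthesis, 1 was called as higher and none as lower, and none was lower at an unadjusted p under 0.05 in limma's test. The share called as higher over all genes tested was 16.7%.

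Proteins that control ODC1 after translation were divided. The antizyme OAZ1, which binds ODC1 and delivers it to the proteasome, was the most abundant transcript of the list, with 1534 to 1813 TPM in siNC against 1661 to 1801 TPM in siBCAT1 libraries, and its log2 fold change was 0.04 (limma, adjusted p = 0.666), with the sign turning under 4 alternatives. OAZ2 was at 54.94 to 69.49 TPM over the 6 libraries and OAZ3 at 0.93 to 2.14 TPM, and neither was called. AZIN1, the inhibitor that frees ODC1 from antizyme, rose from 32.8 ± 3.76 to 47.2 ± 3.69 TPM (SD, n = 3 each; log2 fold change 0.52, limma, adjusted p = 0.0112) and passed under all 14 alternatives. AZIN2 was at 13.17, 2.82 and 2.21 TPM in siNC and at 2.15, 1.25 and 1.59 TPM in siBCAT1 libraries, a difference set largely by siNC replicate 1. Its log2 fold change of -1.08 (limma, adjusted p = 0.174) was -0.41 without that library. ODC1 over OAZ1 was 0.0686, 0.0705 and 0.0710 in siNC and 0.0795, 0.0851 and 0.0866 in siBCAT1 libraries. This TPM ratio of the enzyme to its antizyme did not overlap between the groups, and neither did ODC1 itself. With OAZ1 nearly level, the ratio largely repeats the difference in ODC1, and it was not tested.

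SAT1, the acetyltransferase that marks spermidine and spermine for export or oxidation, was at 35.70, 30.93 and 44.91 TPM in siNC and at 47.49, 46.94 and 55.49 TPM in siBCAT1 libraries. All siBCAT1 libraries were above all siNC libraries, with replicate 3 the highest in each group. The mean was 37.2 ± 7.11 TPM in siNC and 50 ± 4.79 TPM in siBCAT1 (SD, n = 3 each). SAT1 (ENSG00000130066) spans 23783173 to 23786226 of the X chromosome, plus strand. The log2 fold change of 0.43 had a 95% interval from 0.10 to 0.76 and missed the threshold with an adjusted p of 0.0589 from limma. It passed without siNC replicate 3 (limma, adjusted p = 0.0196) and with the replicate number as a block (0.0157). SAT2, its paralog, was called as higher (43.0 ± 2.98 to 52.6 ± 1.89 TPM, log2 fold change 0.29, limma, adjusted p = 0.0291) but passed under only 4 of the 14 alternatives, and with 1 library left out it passed only without siNC replicate 3. ODC1 over SAT1 was 2.95, 4.13 and 2.61 in siNC and 2.78, 3.05 and 2.81 in siBCAT1 libraries, and the groups overlapped.

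**Figure D2:**
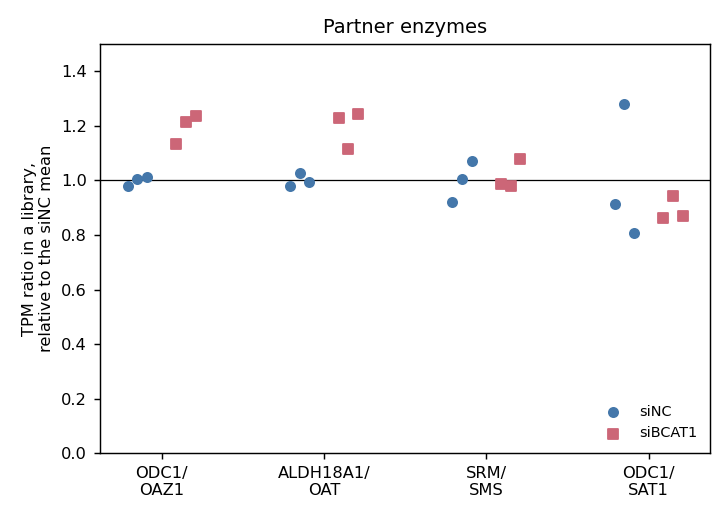
TPM ratios of partner enzymes within each library, divided by the siNC mean of that ratio (black line at 1), for the 3 siNC (circles) and 3 siBCAT1 (squares) libraries. The groups are apart for ODC1 over OAZ1 and ALDH18A1 over OAT but overlap for SRM over SMS and ODC1 over SAT1.

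**Figure D3:**
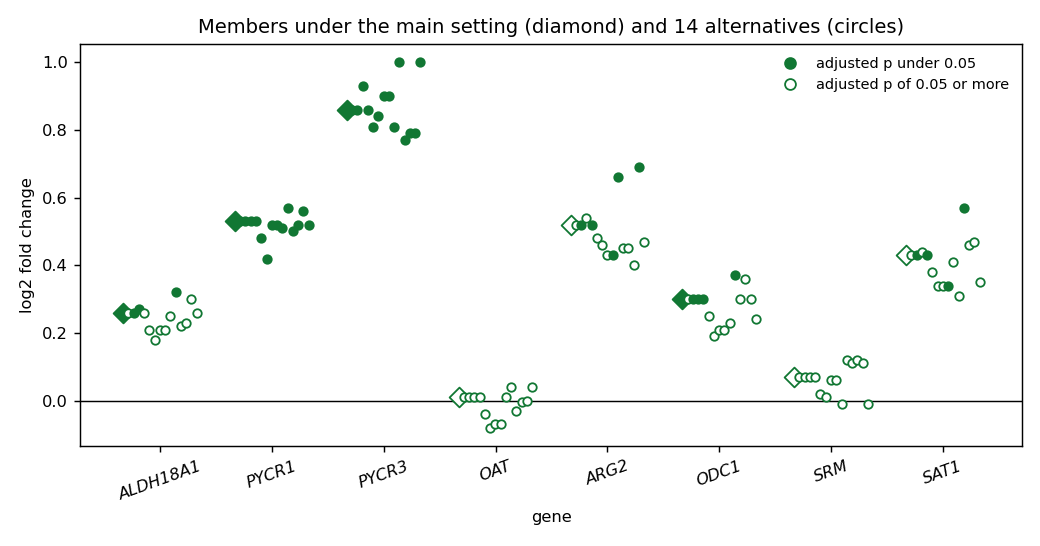
Log2 fold change (siBCAT1 against siNC) of the 8 tested enzymes under the main setting (diamond) and the 14 alternatives (circles), filled where the adjusted p was under 0.05. PYCR1 and PYCR3 are filled throughout. ALDH18A1, ODC1, ARG2 and SAT1 are mostly open and filled under some settings, and OAT and SRM stay near 0.

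Among the 43 other genes of the pathway lists, transcription factors not counted, 33 were tested, 9 were called as higher and 2 as lower. Their median log2 fold change was 0.07. Over all genes tested, 16.7% were called as higher and 10.4% as lower, and the median was 0.04. The lists were chosen with earlier results of these data known, so the counts are a description only. Methylthioadenosine salvage, which returns the by-product of SRM and SMS to methionine, had 4 of its 5 genes called as higher. APIP, the dehydratase of this route, was at 31.14, 30.44 and 27.62 TPM in siNC and at 58.63, 59.02 and 60.16 TPM in siBCAT1 libraries, apart by far more than the spread within either group. Its log2 fold change was 0.97 ± 0.07 (SE; limma, adjusted p = 0.000272). ENOPH1 rose by 0.53 on the log2 scale (limma, adjusted p = 0.00969), and both calls held under all 14 alternatives. MTAP (0.32) and ADI1 (0.28) were called as higher, with adjusted p of 0.0342 and 0.02 from limma, and passed under 5 and 7 alternatives. With 1 library left out, MTAP passed only without siNC replicate 2 and otherwise had an adjusted p of 0.0591 to 0.11, and ADI1 missed the threshold without replicates 1 or 3 of siNC or 1 or 2 of siBCAT1 (0.053 to 0.0741, limma). MRI1 went from 19.1 ± 1.89 to 17.1 ± 0.59 TPM and was not called (log2 fold change -0.15, limma, adjusted p = 0.299).

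In transport, ATP13A3, a polyamine-transporting P5 ATPase, was lower (55.1 ± 6.69 to 40.7 ± 4.21 TPM, log2 fold change -0.43, limma, adjusted p = 0.0303). SLC7A1, which imports arginine and ornithine, was higher (17.2 ± 1.6 to 21.9 ± 0.719 TPM, log2 fold change 0.33, limma, adjusted p = 0.0337). The calls passed under 9 and 8 of the 14 alternatives. ATP13A3 missed the threshold without replicates 1 or 2 of siNC or 2 or 3 of siBCAT1 (adjusted p = 0.066 to 0.0897, limma), and SLC7A1 in every such fit but that without siNC replicate 2 (0.0669 to 0.0989, limma). Hypusine formation on eIF5A is the known use of spermidine in protein modification. None of the 4 genes listed for it, which encode the modifying enzymes or eIF5A proteins, was called by limma in either direction. Of these, 0 had an unadjusted p under 0.05. Shares over all genes tested were 27.1% called and, at an unadjusted p under 0.05 in limma's test, 23.8% higher and 15.9% lower. A list of 4 genes is too short to set its counts apart from these shares.

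**Figure D4:**
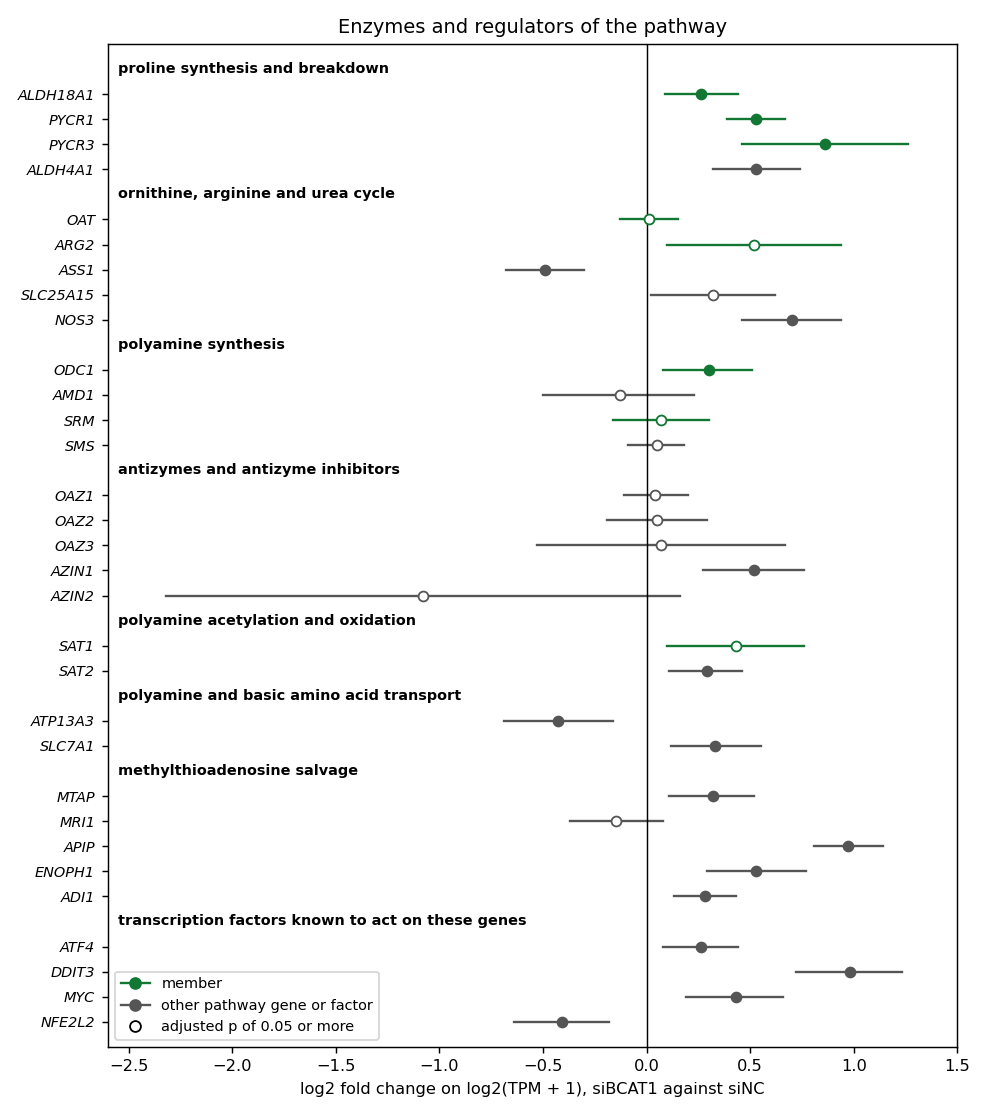
Log2 fold change on log2(TPM + 1) with its 95% interval (limma) for the tested enzymes (green) and for the other pathway genes and transcription factors named in the text (grey), filled where the adjusted p was under 0.05. The 4 genes of proline synthesis and breakdown are all filled and right of 0, and ASS1, ATP13A3 and NFE2L2 are the filled genes left of 0.

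Promoter sequences were available for 6 of the 9 enzymes, each window running from 250 bases before to 50 bases after an annotated start (RefSeq, GRCh38.p14). They were searched on both strands for CACGTG (the E-box), TGACGT (the core of the cyclic AMP response element) and TGATGNAA (a C/EBP-ATF element). Of all 35116 windows, 7.26% held the first word, 7.98% the second and 3.62% the third. Among the 14440 windows of tested genes these shares were 9.38%, 10.7% and 1.94%. The windows of ALDH18A1, ARG2, ODC1 and SRM are shown because they hold a match, with the matched bases in capitals. The words were chosen with the expression values known, and a match is a description of the sequence only.

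ALDH18A1, chr10:95656662-95656961, minus strand, holds 1 E-box and 3 copies of TGACGT or its complement, at -136 for the first and at -58, -12 and -5 for the others, counted from the annotated start:
ALDH18A1: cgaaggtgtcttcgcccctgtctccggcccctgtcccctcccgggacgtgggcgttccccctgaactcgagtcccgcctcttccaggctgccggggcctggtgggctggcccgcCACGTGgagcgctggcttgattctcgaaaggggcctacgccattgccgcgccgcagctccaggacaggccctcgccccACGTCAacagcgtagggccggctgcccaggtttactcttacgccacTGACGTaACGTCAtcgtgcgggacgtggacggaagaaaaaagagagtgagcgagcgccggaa

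ARG2, chr14:67619670-67619969, plus strand, holds 4 matches to TGACGT, which pair up into 2 copies of the palindrome TGACGTCA:
ARG2: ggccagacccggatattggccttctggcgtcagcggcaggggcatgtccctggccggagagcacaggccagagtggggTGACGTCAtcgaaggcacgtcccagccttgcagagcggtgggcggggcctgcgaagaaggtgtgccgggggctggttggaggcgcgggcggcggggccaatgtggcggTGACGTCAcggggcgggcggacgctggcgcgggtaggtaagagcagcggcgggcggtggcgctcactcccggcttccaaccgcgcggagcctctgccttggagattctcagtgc

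ODC1 had windows for 2 starts on the minus strand. That at chr2:10447963-10448262 holds 2 E-boxes, and the other holds 1 TGACGT. SRM, chr1:11059969-11060268, minus strand, holds 1 E-box. The word occurs in windows of ALDH18A1 and ODC1, which were called, and of SRM, which was not. Its part in the expression values was not tested:
ODC1: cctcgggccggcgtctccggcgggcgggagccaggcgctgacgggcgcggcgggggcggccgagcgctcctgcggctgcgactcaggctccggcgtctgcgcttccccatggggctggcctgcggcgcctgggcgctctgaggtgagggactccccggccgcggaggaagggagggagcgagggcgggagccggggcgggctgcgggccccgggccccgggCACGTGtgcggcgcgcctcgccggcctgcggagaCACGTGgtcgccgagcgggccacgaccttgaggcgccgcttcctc
SRM: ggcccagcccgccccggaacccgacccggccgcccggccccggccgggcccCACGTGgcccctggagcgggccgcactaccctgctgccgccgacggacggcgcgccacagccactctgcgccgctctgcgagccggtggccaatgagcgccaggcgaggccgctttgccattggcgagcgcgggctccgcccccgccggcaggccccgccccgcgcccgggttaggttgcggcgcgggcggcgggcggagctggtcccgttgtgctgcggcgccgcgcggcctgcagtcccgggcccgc

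No window of OAT or SAT1 held any of the 3 words. TGATGNAA was found in none of the windows of these enzymes.

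The base composition of the enzymes' transcripts varied, from 41.2% GC in OAT to 63.7% in SRM, around a median of 49.3% over the genes tested. PYCR1 and PYCR3 were among the GC-rich ones, at 63.1% and 63.2%. After each library was adjusted for GC content and transcript length, their log2 fold changes were 0.52 and 0.90, both past the threshold, whereas those of ALDH18A1 and ODC1 were both 0.21 and missed it (adjusted p = 0.0686 and 0.181 from limma).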

How the data were processed

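RNA was sequenced from 3 siNC and 3 siBCAT1 samples of 67R cells with a stranded mRNA kit. The authors trimmed reads with fastp, aligned them with HISAT2 and quantified genes with StringTie against GRCh38 (versions and annotation not given in the sources used here), and deposited TPM values rounded to 2 decimals. TPM holds no read counts, so no count test was used and the precision that depth gives is unknown. Samples were grouped by their labels (NC and siBCAT1), and the study's methods use the name siBCAT1 for the second of its 2 BCAT1 siRNAs. From the deposited TPM, genes averaging 1 TPM or more were tested as log2(TPM + 1) with limma 3.58.1 (lmFit, eBayes with trend) in R 4.3.3, adjusted by Benjamini-Hochberg over all 14286 genes, with a threshold of 0.05. The script was tested on simulated data. Tables and plots were made in Python 3.11.15 with pandas 2.3.3 and matplotlib 3.10.9. Alternatives were no filter, a minimum of 5 TPM, 0.1 as the pseudocount, a block for the replicate number, median-ratio scaling, quantile normalization, a loess correction (span 0.5) for GC content and length alone and with the block, and each library left out in turn. Coordinates are those of GENCODE 29. The members and lists were chosen with earlier results of these data known. Genes named are the members, BCAT1, list genes past the threshold or partnering a member, the listed transcription factors, marker genes, genes overlapping or copying a member, and the 3 tested genes nearest to the member that rose most, by root mean square distance of centred log2 values. The overlapping and copy genes were added after values were seen. Some genes of the lists are not reported here and were left out of the list counts.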

Additional observations from a re-analysis of the deposited data

How the results depend on the processing

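PYCR1, PYCR3 and BCAT1 kept their direction and their call under all 14 alternatives. ALDH18A1 (0.26 on the log2 scale) missed the threshold at 0.26 with no filter and with the replicate block, at 0.21 with median-ratio scaling, the GC and length correction and that correction with the block, and at 0.18 with quantile normalization. ODC1 (0.30) missed it at 0.30 with no filter, 0.25 with median-ratio scaling, 0.19 with quantile normalization and 0.21 with the GC and length correction, with or without the block. ARG2 passed at 0.52 with a minimum of 5 TPM and with the replicate block, and at 0.43 with the GC and length correction and block. SAT1 passed at 0.43, 0.43 and 0.34 under the same settings. OAT turned to -0.04 with median-ratio scaling, -0.08 with quantile normalization and -0.07 with the GC and length correction, with or without the block. With 1 library left out, the ranges were 0.22 to 0.32 for ALDH18A1, 0.23 to 0.37 for ODC1, 0.40 to 0.69 for ARG2, 0.31 to 0.57 for SAT1, -0.03 to 0.04 for OAT and -0.01 to 0.12 for SRM. The number of members called as higher was 6 with a minimum of 5 TPM, 5 with the replicate block, 2 with no filter, median-ratio scaling, quantile normalization or the GC and length correction, and 2 to 4 with 1 library left out. The list genes called as higher then numbered 5 to 8 and those called as lower 1 to 2, and 1 was called as lower with no filter. The genes called over the whole table went from 3865 to 2567 with no filter, where 31860 genes were tested, and to 2493 to 3783 with 1 library left out. The lowest counts were 2493 without siNC replicate 1, 2527 without siBCAT1 replicate 1 and 2556 without siBCAT1 replicate 2. The cause of these moves was not tested.

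Among partner genes with no call, SMS turned to -0.0022 with median-ratio scaling and to -0.05 with the GC and length correction, with or without the block. OAZ1 turned to -0.01 and -0.04 under these settings, OAZ2 to -0.02 with the correction and -0.04 with quantile normalization, and OAZ3 to -0.02 with the correction. With 1 library left out they ranged from -0.28 to 0.02 (AMD1), -0.01 to 0.11 (OAZ1), -0.01 to 0.15 (OAZ2) and -0.07 to 0.28 (OAZ3). Over all named genes that are not members and all alternatives, 53 values lost a call and 18 turned sign, the latter all in these 5 partner genes.

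The replicate numbers are shared between the groups, but the labels do not say that they pair the samples. Deviations of same-numbered libraries correlated at 0.084, 0.102 and 0.124 across genes, and those of different-numbered libraries at -0.081 to -0.013. Values were centred within each group, which ties higher correlations in some pairs to lower ones in others. All same-numbered values were positive and all others negative. The samples were treated as unpaired in the main setting. Whether they are paired is not settled by these values. Each library correlated best with its own number. The replicate block raised the genes called from 3865 to 4568. With it, ARG2 and SAT1 passed the threshold and ALDH18A1 missed it.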

Other observations

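Of 5 listed transcription factors known to act on these enzymes, 4 were tested, 3 were called as higher and 1 as lower. The shares over all genes tested were 16.7% higher and 10.4% lower. The stress factor DDIT3 was at 12.76, 12.02 and 10.74 TPM in siNC and at 24.95, 21.46 and 26.49 TPM in siBCAT1 libraries (log2 fold change 0.98, limma, adjusted p = 0.00119), with no overlap between the groups. Its call held under all 14 alternatives. MYC, a known activator of ODC1, was at 513.9, 516.5 and 570.3 TPM in siNC and at 688.7, 636.8 and 838.8 TPM in siBCAT1 libraries (log2 fold change 0.43, limma, adjusted p = 0.0209) and passed under 11 alternatives, but not without siNC replicate 1 (0.40, adjusted p = 0.0667). ATF4, which acts on genes of amino acid synthesis, was higher by 0.26 on the log2 scale (limma, adjusted p = 0.0451) but passed under only 4 alternatives and, with 1 library left out, only without siBCAT1 replicate 2 (otherwise adjusted p = 0.0639 to 0.127, limma). NFE2L2, the antioxidant response factor, fell from 63.2 ± 5.66 to 47.3 ± 4.67 TPM (log2 fold change -0.41, limma, adjusted p = 0.0220) and passed under 11 alternatives, but not without siNC replicate 1 (adjusted p = 0.071, limma) or siBCAT1 replicate 2 (0.0621).

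The 3 tested genes whose centred log2 values over the 6 libraries lay nearest to those of PYCR3 were CDC25A, ZNF229 and GSTZ1, at root mean square distances of 0.0651, 0.0862 and 0.0927, against a median of 0.48 over all genes tested. Since PYCR3 differed between the groups, genes near it differ too, and the distances are a description only.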
